A study of Mus musculus with 3 samples.

Results

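The 48 genes described here carry lipid into cells and handle it there: lipoprotein lipase and its capillary anchor, fatty acid transporters and binding proteins, acyl-CoA synthetases, enzymes of mitochondrial beta-oxidation and of fatty acid and sterol synthesis, lipoprotein receptors and scavenger receptors. They were chosen by symbol and not by a measured value. A probe set of its own, one that names no other gene, was found for 45 of the 48. The others, Lipc, Acsl1 and Acsl3, were not analysed here, Acsl3 because its probe set also names Utp14b. All values come from endothelial cells of adult mouse glomeruli, the tufts of capillaries through which the kidney filters plasma. The mice were adult Tie2-GFP transgenics on a mixed, mainly CD-1 background with sex unknown, carrying Tg(TIE2GFP)287Sato, in which green fluorescent protein is made under the promoter of Tek (Tie2), an angiopoietin receptor gene. That promoter is also known to be active in some blood cells. Glomeruli were captured on sieves after the medulla had been cut away, digested, and the green cells sorted. There were 3 Affymetrix Mouse Gene 1.0 ST arrays, replicates 1, 3 and 5, each from 1 kidney with no pooling, and they form 1 group, so the design holds no comparison between groups. Nothing else in the labels tells the kidneys apart. The p-values below rest only on the spread between these 3 arrays and on a variance prior estimated over many probe sets.

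Endothelium is the first barrier that blood-borne lipid meets. In muscle and fat, lipoprotein lipase made by the parenchymal cells is carried across the capillary wall by GPIHBP1 and held on its lumen, where it frees fatty acids from triglyceride-rich particles. CD36 and the fatty acid transport proteins move the freed acids into cells, binding proteins carry them through the cytosol, acyl-CoA synthetases trap them as CoA esters, and mitochondria oxidise them or droplets store them. Whole lipoproteins are taken up by receptors of the LDL receptor family and by scavenger receptors, and the sterol sensors of the endoplasmic reticulum set how much cholesterol a cell makes.

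The question asked of each gene was whether its level lay above or below 100, the number that the study used as a filter on raw values. Levels are given as log2 signal per probe set, on which 100 is 6.64, in the order replicates 1, 3 and 5, with mean ± SD (n = 3). A gene was called above or below where limma's moderated test of the 3 values against that level gave an adjusted p under 0.05. Its variance prior came from the probe sets whose 3 values all differ. The alternative, a prior from all probe sets, called probe sets placed at the level too often in an earlier simulation. A simulation does not settle which prior suits the real values, and calls of lipid genes that changed with the alternative are given below. A level on such an array depends on its probes, so levels of single genes were not set against each other, and medians over many genes are given as a description. Below 100 does not mean absent.

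Sorted endothelial identity was checked first. All 10 endothelial markers were called above, among them Tek at 11.00, 10.18 and 10.77, and 8 of the 10 were lowest on replicate 3. Their summed linear signal was 18374, 12117 and 20881. No macrophage marker was called above (11 of 12 below), though Mertk, over 100 on all arrays, was called above with the prior from all probe sets (adjusted p = 0.000777). None was called above among 7 adipocyte, 5 podocyte and 7 mesangial and smooth muscle markers. Of 11 proximal tubule markers, Aqp1 and Gatm were above and 9 below. In bulk samples such as these, fewer cells of a type and less RNA per cell cannot be told apart.

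Of the 45 measured lipid genes, 9 were called above 100 (20.0%), beside 14.9% of all 19938 genes. Below 100 were 23 (51.1%), beside 73.8% of all genes, and 13 (28.9%) were neither, beside 11.3%. With limma's variance prior taken from all probe sets, 10 were above, beside 15.9% of all genes, and 23 below, beside 75.5%. The 9 were the fatty acid binding protein genes Fabp4 and Fabp5, the acyl-CoA synthetase gene Acsl5, the beta-oxidation genes Acadvl, Hadha and Hadhb, the desaturase gene Scd1, the lysosomal receptor gene Scarb2 and the sterol sensor gene Insig1. No member of the lipase (4 measured genes), membrane transport (5) or lipoprotein receptor (5) groups was among them. With 14.9% of all genes above, groups this small are too few to read that absence as a trait. The median level was 6.02 over the lipid genes and 5.02 over all genes, and 11 lipid genes (24.4%) had at least 100 on every array, beside 17.8% of all genes.

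**Figure D1:**
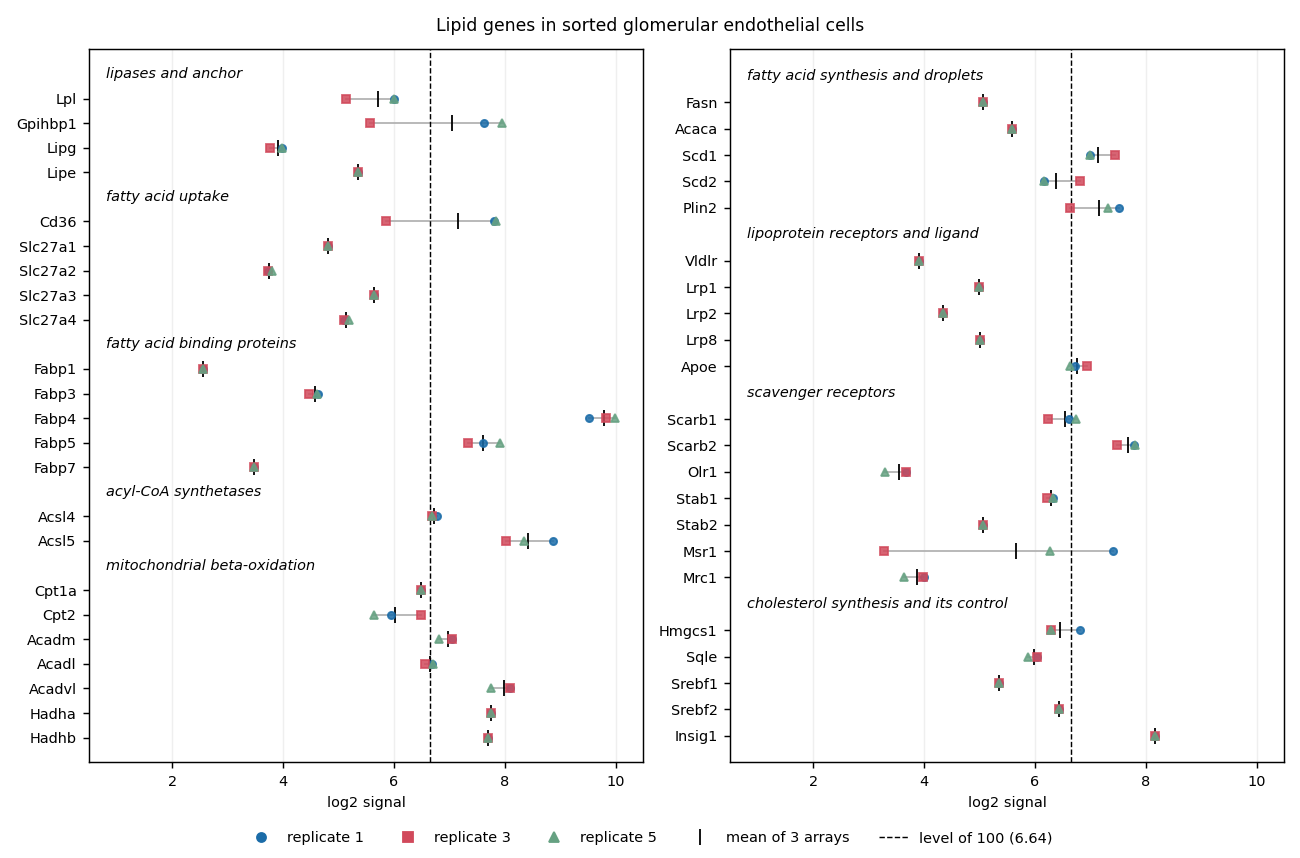
Log2 signal (horizontal axis) of the 45 measured lipid genes, grouped by role, with 1 symbol per array, a bar at the mean and a dashed line at 100 (6.64). Fabp4, Acsl5, Acadvl, Hadha, Hadhb, Scarb2, Fabp5, Scd1 and Insig1, called above, lie right of the line on all 3 arrays, as do Acsl4 and Acadm, called neither, and Gpihbp1, Cd36 and Msr1 have the widest spread, each with replicate 3 lowest.

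**Figure D2:**
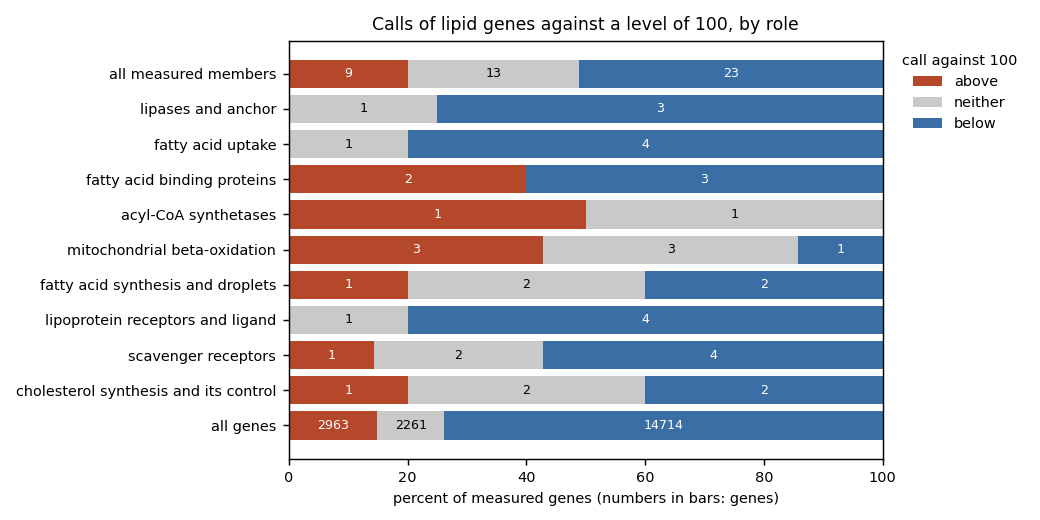
Share of measured genes (percent, horizontal axis) called above, neither or below 100 in each role, with gene counts in the bars and all 19938 genes in the last row. Beta-oxidation has 3 above, 3 neither and 1 below, while the lipase, uptake and lipoprotein receptor rows have none above.

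Promoter sequences are shown for genes whose values the following paragraphs return to: Hadhb, which shares the stretch before its start with Hadha, the sterol-regulated genes Insig1 and Hmgcs1, and Cd36, one of the genes that varied most between arrays. Each is the 250 bases before a start site that RefSeq annotates on mouse assembly GRCm38.p6, on the gene's own strand, 5′ to 3′. Capitals mark GC boxes (GGGCGG) in Hadhb, a CCAAT box on the reverse strand (ATTGG) and an E-box (CACGTG) in Insig1, a sterol response element core (TCACCCCAC) and reverse CCAAT boxes in Hmgcs1, and a CCAAT box in Cd36. Other matches to these motifs are left in lower case.
Hadhb, chr5:30155003-30155252, plus strand: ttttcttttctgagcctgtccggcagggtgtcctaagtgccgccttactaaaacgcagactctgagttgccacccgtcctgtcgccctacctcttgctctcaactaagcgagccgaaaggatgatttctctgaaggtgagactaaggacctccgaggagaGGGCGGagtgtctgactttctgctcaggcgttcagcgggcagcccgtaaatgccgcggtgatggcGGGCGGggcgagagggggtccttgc
Insig1, chr5:28071162-28071411, plus strand: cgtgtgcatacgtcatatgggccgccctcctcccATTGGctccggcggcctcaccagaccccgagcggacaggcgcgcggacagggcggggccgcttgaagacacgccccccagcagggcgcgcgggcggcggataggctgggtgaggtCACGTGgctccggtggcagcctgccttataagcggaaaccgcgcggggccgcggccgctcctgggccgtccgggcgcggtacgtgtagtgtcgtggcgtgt
Hmgcs1, chr13:119690101-119690350, plus strand: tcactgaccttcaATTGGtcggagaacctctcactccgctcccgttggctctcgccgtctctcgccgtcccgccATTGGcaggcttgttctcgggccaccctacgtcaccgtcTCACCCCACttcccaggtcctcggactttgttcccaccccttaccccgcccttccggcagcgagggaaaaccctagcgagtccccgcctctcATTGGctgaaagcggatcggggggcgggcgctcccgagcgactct
Cd36, chr5:17835897-17836146, minus strand: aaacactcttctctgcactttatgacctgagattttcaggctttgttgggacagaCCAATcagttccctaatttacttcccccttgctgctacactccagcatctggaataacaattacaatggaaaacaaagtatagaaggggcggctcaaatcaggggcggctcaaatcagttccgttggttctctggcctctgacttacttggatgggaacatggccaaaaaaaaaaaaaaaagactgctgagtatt
The starts of Hadha (minus strand, position 30154980) and Hadhb (plus strand, position 30155253) lie head to head on chromosome 5 with 272 bases between them. The GC boxes of Hadhb lie 90 to 85 and 25 to 20 bases before its start. In Hmgcs1 the sterol response element core lies 137 to 129 bases before the start, and in Insig1 the E-box lies 101 to 96 bases before it.

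These letters were searched on both strands in 45 windows of the 35 lipid genes that had one, and in 32851 windows of all genes. TCACCCCAC stood in 1 of the 45 windows, that of Hmgcs1, beside 0.496% of all windows. CCAAT stood in 18 (40.0%), beside 33.8% of all, GGGCGG in 23 (51.1%), beside 32.7%, and CACGTG in 3 (6.67%), those of Insig1, Lipe and Slc27a1, beside 6.02%. The PPAR response element, AGGTCA repeated in the same direction with 1 base of any kind between the copies, stood in no window of a lipid gene and in 0.0335% of all windows. A match is a run of letters and not a shown binding site.

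Of the 3 lipases and the anchor gene Gpihbp1, the lipases were all called below 100, beside 73.8% of all genes, and no gene above. Gpihbp1, which anchors lipoprotein lipase on the capillary lumen, had 7.62, 5.56 and 7.94 (7.04 ± 1.29) and was called neither (adjusted p = 0.518). Replicates 1 and 5 lay above 100 and replicate 3 below, with 5.21-fold between the highest and the lowest array. Lpl, the lipase that GPIHBP1 carries, had 5.99, 5.12 and 5.99 (5.70 ± 0.50, adjusted p = 0.0190) and was below 100 on every array, lowest again on replicate 3. The adjusted p for Lpl was 0.0511 when limma's variance prior was taken from all probe sets. Lipg, which encodes endothelial lipase, an enzyme that mainly cuts phospholipids of high density lipoprotein, was at 3.91 ± 0.13 and below. Lipe, the hormone-sensitive lipase that works on stored lipid inside cells, was at 5.36 on all arrays and below.

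Fatty acid entry gave no call above, beside 14.9% of all genes. Cd36, a surface receptor for long-chain fatty acids that is also a scavenger receptor, had 7.80, 5.85 and 7.84 (7.16 ± 1.14, adjusted p = 0.355). As with Gpihbp1, replicates 1 and 5 were above 100 and replicate 3 below it, a span of 3.97-fold. The 4 fatty acid transport protein genes Slc27a1, Slc27a2, Slc27a3 and Slc27a4, whose products take up fatty acids coupled to their activation, were all below, at 3.75 to 5.64, and differed by at most 0.09 between arrays. Slc27a4 was at 5.13 ± 0.05 and Slc27a3 at 5.64.

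Of the 5 cytosolic fatty acid binding protein genes, 2 were above and 3 below. Over all genes, 14.9% were above, 73.8% below and only 11.3% neither. Fabp4, the adipocyte form that is also known in capillary endothelium, had 9.52, 9.83 and 9.99 (9.78 ± 0.24, adjusted p = 9.94e-05). All 3 arrays were over 100, at linear signals of 734, 912 and 1019, and replicate 1, not replicate 3, was lowest. Of the adipocyte markers, none was above 100, and Adipoq, the hormone gene that defines adipocytes, was at 2.97 ± 0.12. Fabp5, the epidermal form, had 7.60, 7.33 and 7.92 (7.61 ± 0.29, adjusted p = 0.00556), and its other probe set had 7.47, 7.23 and 7.68 (7.46 ± 0.22, adjusted p = 0.00656). Both probe sets had replicate 5 highest and replicate 3 lowest. The liver form Fabp1, the heart form Fabp3 and the brain form Fabp7 were at 2.56, 4.57 ± 0.09 and 3.47, all below 100.

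Acyl-CoA synthetases, which join a fatty acid to coenzyme A and so keep it in the cell, were measured for 2 of the 4 listed. Acsl5 had 8.86, 8.03 and 8.34 (8.41 ± 0.42, adjusted p = 0.00149), above on every array, with replicate 3 lowest. Acsl4, which prefers arachidonic acid, had 6.78, 6.69 and 6.69 (6.72 ± 0.05, adjusted p = 0.575), close to the level on all arrays. Acsl4 was called above where the arrays were centred on the same median or quantile normalized.

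Mitochondrial beta-oxidation had 3 of 7 genes called above, 1 below and 3 neither, beside 14.9%, 73.8% and 11.3% of all genes. Acadvl, which encodes the very long-chain acyl-CoA dehydrogenase that takes the first step for long chains, had 8.09, 8.09 and 7.76 (7.98 ± 0.19, adjusted p = 0.00102). Hadha and Hadhb encode the alpha and beta subunits of the mitochondrial trifunctional protein, which carries out the later steps on long chains. Hadha was at 7.75 on each array (adjusted p = 0.00104) and Hadhb at 7.69 on each (adjusted p = 0.00127), and the other probe set of Hadhb was at 7.44 on each (adjusted p = 0.00327).

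The medium- and long-chain dehydrogenase genes, Acadm and Acadl, lay near the level. Acadm had 7.05, 7.05 and 6.81 (6.97 ± 0.14, adjusted p = 0.0747), over 100 on all arrays without passing the test, though it passed with the prior from all probe sets (adjusted p = 0.0303). Acadl had 6.68, 6.57 and 6.70 (6.65 ± 0.07, adjusted p = 0.965). Carnitine palmitoyltransferases pass long-chain acids into mitochondria. Cpt1a, the outer membrane enzyme that sets the rate of entry, was at 6.48 on each array and called neither (adjusted p = 0.252), but below with that other prior (adjusted p = 2.23e-05). Cpt2, the inner membrane enzyme, had 5.94, 6.48 and 5.64 (6.02 ± 0.43, adjusted p = 0.0466), under 100 on every array with replicate 3 highest. That call was lost without replicate 1 (adjusted p = 0.126), without replicate 5 (adjusted p = 0.123) with the prior from all probe sets (adjusted p = 0.0859) and under quantile normalization (adjusted p = 0.0548).

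Of the genes that make and store fat, Fasn (fatty acid synthase) and Acaca (acetyl-CoA carboxylase, which supplies its malonyl-CoA) were below 100, at 5.07 and 5.58 on each array. The other probe set of Acaca was at 3.50 ± 0.05. Stearoyl-CoA desaturases put the double bond into palmitate and stearate. Scd1 had 6.99, 7.44 and 6.99 (7.14 ± 0.26, adjusted p = 0.0393), and Scd2 had 6.17, 6.81 and 6.17 (6.38 ± 0.37, adjusted p = 0.262). Both desaturases had replicate 3 highest, and Scd1 was over 100 on all arrays, Scd2 on replicate 3 alone. The call for Scd1 was lost without replicate 1 (adjusted p = 0.0531) and without replicate 5 (adjusted p = 0.0520). Plin2, which coats lipid droplets, had 7.52, 6.62 and 7.32 (7.16 ± 0.47, adjusted p = 0.0933), with replicate 3 lowest and just under 100.

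The 4 receptors for whole lipoproteins were all below 100, beside 73.8% of all genes. Vldlr, which binds triglyceride-rich particles, was at 3.91, Lrp1, which clears remnants in liver, at 5.00, Lrp2 (megalin), the uptake receptor of the proximal tubule, at 4.33, and Lrp8, the apolipoprotein E receptor of brain, at 5.01, with the same value on every array in each case. Their ligand gene Apoe had 6.71, 6.93 and 6.64 (6.76 ± 0.15, adjusted p = 0.443) and was called neither. Replicate 5 lay just under 100 and the other 2 arrays just over it.

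Scavenger receptors take up modified lipoproteins and other polyanions, and 1 of 7 was called above, 4 below and 2 neither. Over all genes, the shares were 14.9%, 73.8% and 11.3%. Scarb2, a lysosomal membrane protein that brings glucocerebrosidase to the lysosome, had 7.78, 7.47 and 7.80 (7.68 ± 0.18, adjusted p = 0.00231). Scarb1, the receptor for high density lipoprotein, had 6.62, 6.23 and 6.75 (6.53 ± 0.27, adjusted p = 0.541), with only replicate 5 over 100. Both had replicate 3 lowest. Olr1, the endothelial receptor for oxidised low density lipoprotein, was at 3.55 ± 0.21 and below. Stab1 and Stab2, clearance receptors of liver sinusoidal endothelium, were at 6.29 ± 0.06 and 5.07, both below. For Stab1 the adjusted p was 0.0465 and lay between 0.0528 and 0.0675 when any 1 array was left out, so that call rests on all 3 arrays.

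Msr1, the class A scavenger receptor known from macrophages, had 7.41, 3.27 and 6.27 (5.65 ± 2.14, adjusted p = 0.336), a 17.7-fold span. Replicate 1 was above 100, replicate 5 below it and replicate 3 far below it. Mrc1, the mannose receptor, was at 3.99, 3.98 and 3.63, with no such drop on replicate 3. The summed linear signal of the 12 macrophage markers was 419, 396 and 396. Of these markers 4 had identical values on all arrays, among them Adgre1 at 3.38 and Csf1r at 4.24. Such values give no measure of spread, and Mertk, the highest marker, hardly differed between arrays. The sum therefore says little about a change in such cells. Aif1 had 5.23, 3.94 and 4.53, with the same order of arrays as Msr1, while Lyz2 had 4.34, 4.55 and 3.99, with replicate 3 highest. Of the 8 markers that differed between arrays, 2 had their single lowest value on replicate 3 and 4 on replicate 5. Only Mertk, at 6.89 ± 0.02, was not called below. The part of such cells in the value of Msr1 was not tested.

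**Figure D3:**
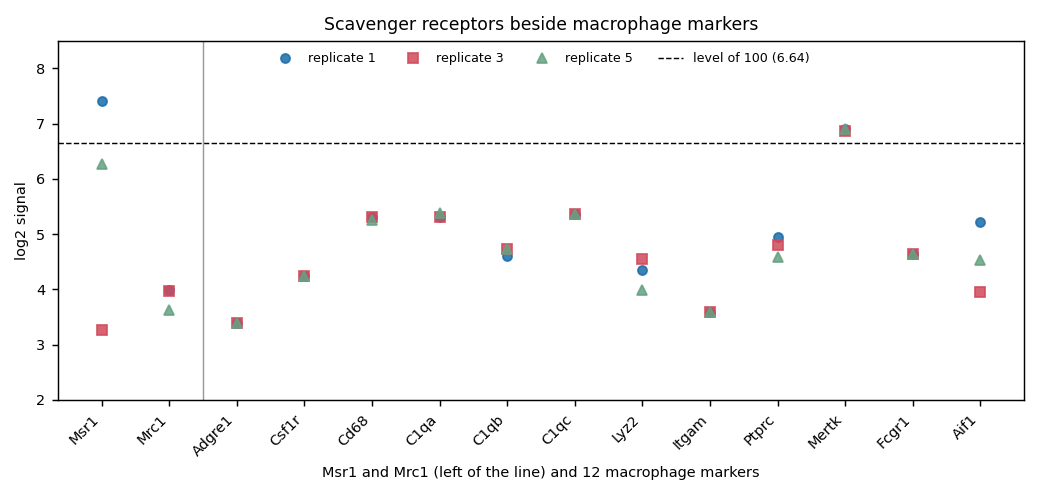
Log2 signal (vertical axis) on each of the 3 arrays for Msr1 and Mrc1, left of the grey line, and for the 12 macrophage markers. Msr1 spans 7.41 to 3.27. Among the markers Aif1 has the widest span (1.28), followed by Lyz2 (0.55), and all but Mertk lie under the dashed line at 100.

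Cholesterol synthesis and its control had 1 gene above, 2 below and 2 neither, beside 14.9%, 73.8% and 11.3% of all genes. Insig1 holds the SREBP precursors in the endoplasmic reticulum when sterol is plentiful, and its transcription is itself driven by SREBPs. It was at 8.16 on each array (adjusted p = 0.000361). Srebf2, which encodes the SREBP that drives sterol synthesis, was at 6.44 on each array (adjusted p = 0.164, and 1.25e-05 with the prior from all probe sets), and Srebf1, whose products favour fatty acid synthesis, was at 5.35 and below. Of the enzymes, Hmgcs1, which makes the precursor of mevalonate, had 6.82, 6.28 and 6.28 (6.46 ± 0.31, adjusted p = 0.357), over 100 on replicate 1 alone. Sqle, which oxidises squalene, had 6.03, 6.03 and 5.87 (5.98 ± 0.09, adjusted p = 0.00704), under 100 on all arrays.

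The spread between arrays differed from gene to gene. Identical values on all arrays, within 1e-09, were found for 18 of 45 (40.0%), beside 55.2% of all genes. For those genes the error in the test comes from the variance prior alone. Lpl, Lipg, Slc27a2, Slc27a4, Acsl4, Acadm and Acadvl had the same value on 2 of the 3 arrays. So had Scd1, Scd2, Olr1, Stab1, Hmgcs1 and Sqle. Their SD rests on the array that differed and may not measure the spread between kidneys. Over 2-fold between the highest and lowest array were 3, Gpihbp1, Cd36 and Msr1 (6.67% of the 45), beside 5.07% of all genes. All 3 reached 100 on some arrays only, as did 9 of the 45, while 11 reached it on every array. Among all genes that reached 100 on 1 or more arrays, 17.0% differed by over 2-fold. The matching set of lipid genes is these 9 and 11, which hold all 3, and not the 45 behind the 6.67%. The 6.67% should therefore not be read beside the 17.0%. The 3 lipid genes were lowest on replicate 3, as were 480 of the 1011 genes over 2-fold in the whole set (47.5%). Of the 27 lipid genes that differed at all, 13 (48.1%) had their single lowest value on replicate 3, beside 27.4% of the 8925 genes that differed, and 7 had it on replicate 5 and 1 on replicate 1. Msr1 was 11.9-fold, Gpihbp1 4.66-fold, Cd36 3.92-fold, Lpl 1.83-fold and Plin2 1.74-fold higher in the mean of replicates 1 and 5 than on replicate 3. The endothelial markers were also lower there, as given above, and their part in these differences was not tested. Cpt2, Scd1, Scd2 and Apoe ran the other way, and these 4 of 27 had their single highest value on replicate 3, beside 2708 of the 8925 genes. Without replicate 3, Gpihbp1 (adjusted p = 0.00248), Cd36 (adjusted p = 0.00111) and Plin2 (adjusted p = 0.00548) were called above 100, and Scd2 (adjusted p = 0.0182) below. Scd2 had the same value on replicates 1 and 5, so its error there comes from the variance prior alone.

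**Figure D4:**
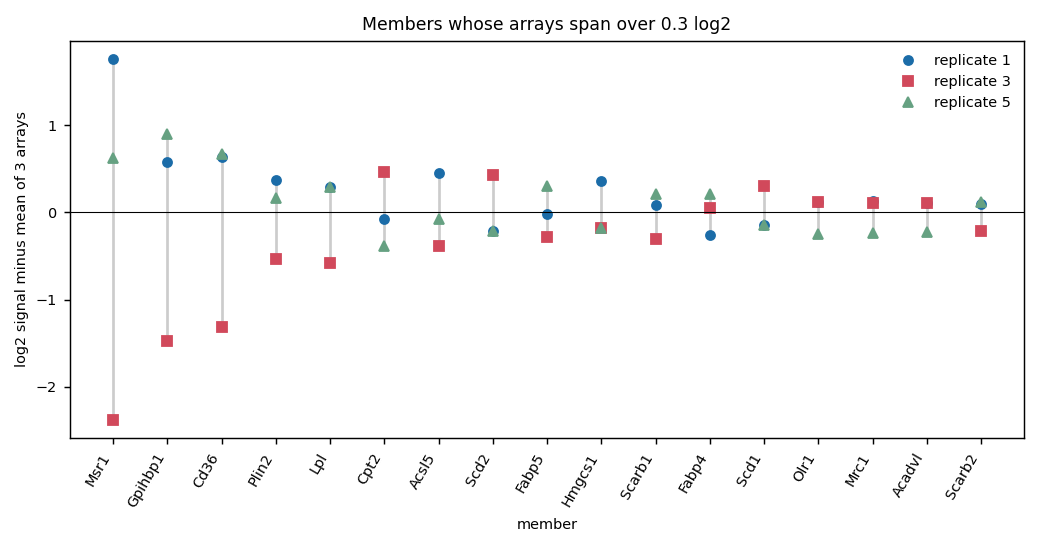
Deviation of each array from the mean of 3 arrays (log2, vertical axis) for the lipid genes whose arrays span over 0.3, ordered by span. Replicate 3 is lowest for Msr1, Gpihbp1, Cd36, Plin2, Lpl and Acsl5 and highest for Cpt2, Scd1 and Scd2.

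Further lists of lipid genes, 184 in all with 171 measured, showed how far the same calls held outside the 48. Of the 171, 24 (14.0%) were above, 120 (70.2%) below and 27 (15.8%) neither, shares near those of all genes. By count, the list with most calls above was that of other fatty acid oxidation genes, with 5 of 21 above, 10 below and 6 neither. Those 5 were 23.8% of the list, beside 14.9% of all genes, and the share was higher, at 25%, for 2 of 8 other sterol control genes. The oxidation genes above were Etfa at 9.19 ± 0.31, Etfb at 8.80 ± 0.34 and Etfdh at 7.81, which pass electrons from the acyl-CoA dehydrogenases to ubiquinone, and Acaa2 at 7.61 ± 0.23 and Hsd17b4 at 7.52, enzymes of mitochondrial and peroxisomal beta-oxidation.

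In each of the remaining lists, the count above was lower, though the lists differ in size. Over all genes, 14.9% were above and 73.8% below. Lists this small are too few to read a difference from those shares as a trait. Of 18 other fatty acid synthesis genes, 2 were above, the elongases Elovl5, with 9.53, 7.73 and 9.41, and Elovl1 at 8.74 ± 0.48, and 15 were below. Of 23 other droplet genes, 2 were above and 19 below. Those above were Mgll, monoacylglycerol lipase, with 9.55, 7.67 and 10.06 (9.09 ± 1.26), and Abhd5, the activator of adipose triglyceride lipase, at 8.39 ± 0.20. Elovl5 and Mgll were lowest on replicate 3, as Gpihbp1 and Cd36 were, yet lay above 100 on every array.

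Of 14 other lipase regulators, 2 were above, Glmp at 8.20 ± 0.23 and Lipa, the lysosomal acid lipase, at 7.73 ± 0.12, and 9 were below, Angptl4, an inhibitor of lipoprotein lipase, being below with 4.60 on each array. Of 17 other carriers and transporters, 3 were above, the acyl-CoA binding protein genes Dbi at 8.65 ± 0.19, Acbd3 at 7.88 ± 0.07 and Acbd5 at 7.51 ± 0.36, and 12 were below. Of 16 other lipoprotein receptor genes, 3 were above and 11 below. Those above encode partners of the receptors: Dab2, a clathrin adaptor, at 9.22 ± 0.16, Lrpap1, the chaperone of the LDL receptor family, at 8.42 ± 0.04, and Mylip, a ubiquitin ligase that degrades receptors of the family, at 7.04 ± 0.15. All 12 other scavenger receptor genes were below, beside 73.8% of all genes.

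Of 16 other cholesterol synthesis genes, 2 were above, Stard4, a sterol carrier, at 7.39 ± 0.18 and Fdps, farnesyl diphosphate synthase, at 7.20 ± 0.17, and 9 were below. Of 8 other sterol control genes, 2 were above, Insig2 at 8.10 ± 0.12 and Npc2, which hands cholesterol out of the lysosome, at 7.62 ± 0.30, 2 were below and 4 neither. Among 14 PPARs and regulators of uptake, 11 were below, including Ppara at 4.02, and 2 were above, Nrp1 at 11.21 ± 0.74 and Flt1 at 10.54 ± 0.29, the receptors of VEGF-B, a factor known to drive endothelial fatty acid uptake. Ppard at 6.28 and Pparg at 4.55, named after their values were seen, were also below. Of 12 other apolipoprotein and transfer protein genes, Pltp, the phospholipid transfer protein, was above at 8.58 ± 0.33 and 10 were below.

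**Figure D5:**
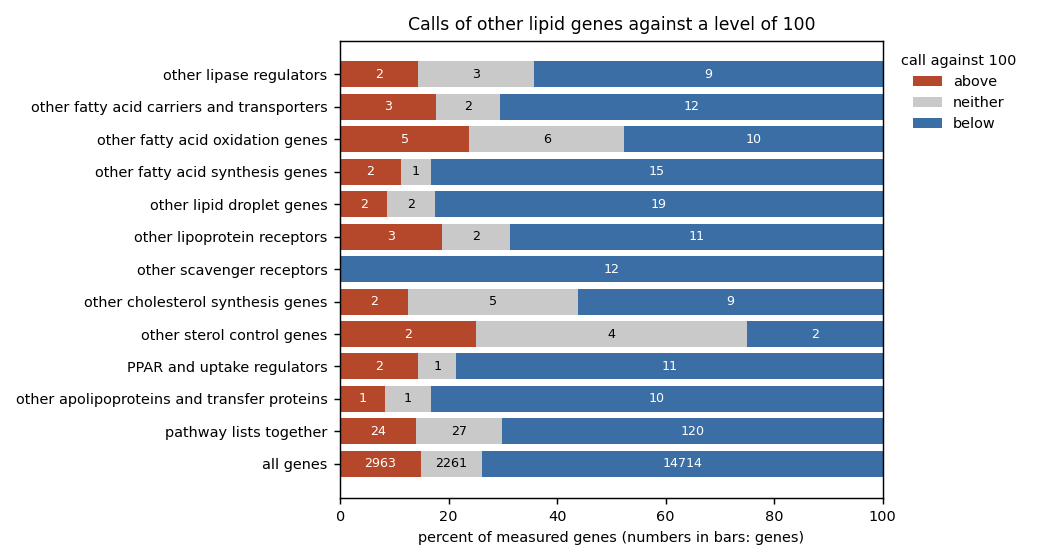
Share of measured genes (percent, horizontal axis) called above, neither or below 100 in 11 further lists of lipid genes, in the lists together and in all 19938 genes, with gene counts in the bars. Other fatty acid oxidation genes have 5 above, and all 12 other scavenger receptor genes lie below. Over all genes, 14.9% are above and 73.8% below.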

How the data were processed

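The RNA of the sorted cells went through 1 round of amplification (NuGEN WT-Ovation Pico) and onto 3 arrays. The authors deposited log2 signals per probe set. Affymetrix Expression Console is named in the submitters' processing notes, without a version. The study names RMA for a plot of its own. The set of arrays that shared a normalization was not given in the sources used here. A level may therefore depend on other arrays, and 100 on this scale need not be 100 on the raw scale of the study's filter. The values ran from 1.39 to 14.40, with array medians of 4.85, 4.80 and 4.79. The number of arrays limits the precision.

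Of 35557 probe sets, 21789 name 1 gene in the platform annotation (19938 genes), 1621 name several and 12147 were not named. By Entrez identifier, 21698 matched RefSeq (GRCm38.p6), which also supplied the promoter windows, and no symbol changed. The probe set with the highest mean stood for a gene, and 4 lipid genes had several. An intercept-only model was fitted with limma 3.58.1 (R 4.3.3). Its two-sided test set the mean against log2 of 100, and p-values were adjusted by Benjamini-Hochberg across 21789 probe sets. The variance prior was estimated on the 4406 probe sets whose 3 values all differ (SD 0.288, degrees of freedom 2.03), since 54.1% were identical on all arrays. The fit was tested on simulated data. Their spreads were drawn from the main prior, so that test cannot show which prior suits the real values. Alternatives were another prior, levels of 50 and 200 and one from olfactory receptor probe sets (28.9, their 95th percentile), other scaling, the mean of a gene's probe sets, a filter on dim probe sets, and leaving out each array.

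All 48 genes could be named. Values on each array were given for those with at least 100 on 1 or more arrays or over 2-fold between arrays, and for some others where the role called for them (Lpl, Cpt2, Sqle and Mrc1). The rest were given by level, range and counts. From the further lists, up to 5 genes called above could be named, and the first gene of a list. The members and lists were chosen with earlier results of these data known.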

Additional observations from a re-analysis of the deposited data

How the results depend on the processing

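The counts moved most with the level chosen. Shares over all genes were not worked out at other levels or with arrays left out, so those counts describe the lipid genes alone. With it at 50 in place of 100, 21 genes were above and 15 below. With it at 200, 3 were above. At the olfactory receptor level (28.9), 29 were above, 8 below and 8 neither. Testing only probe sets at or above that level left 11 below, by construction, since dim genes were not tested. Leaving out 1 array gave 8 to 12 above, 21 to 23 below, 10 to 16 neither and 1 to 3 over 2-fold between arrays, with 1 without replicate 3. With the prior from all probe sets, 10 were above and 23 below. Of the 45 genes, 41 kept direction and call with the arrays centred, 40 with quantile normalization, 40 with the other prior and all 45 with probe sets averaged. Cpt1a and Srebf2 were called below and Acadm above with the prior from all probe sets and under both scalings, and Cpt2, Scd1 and Stab1 were not called where dim probe sets were left untested (adjusted p = 0.0552, 0.0506 and 0.0663). No paired analysis was possible because there is 1 group.

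Means on the other side of the level, as mean minus log2 level, were as follows. Above 50 but not 100 lay Lpl by 0.060, Cpt1a by 0.84, Cpt2 by 0.38, Scd2 by 0.74, Scarb1 by 0.89, Stab1 by 0.64, Msr1 by 0.0057, Hmgcs1 by 0.81, Sqle by 0.33 and Srebf2 by 0.79. Against 200, values over 100 turned to -0.60 for Gpihbp1, -0.48 for Cd36, -0.030 for Fabp5, -0.92 for Acsl4, -0.68 for Acadm, -0.99 for Acadl, -0.50 for Scd1, -0.49 for Plin2 and -0.88 for Apoe. Above the olfactory level lay Lpl by 0.85, Lipe by 0.50, Slc27a3 by 0.78, Slc27a4 by 0.27, Cpt1a by 1.63, Cpt2 by 1.17, Fasn by 0.21, Acaca by 0.73, Scd2 by 1.53, Lrp1 by 0.14, Lrp8 by 0.15, Scarb1 by 1.68, Stab1 by 1.43, Stab2 by 0.21, Msr1 by 0.80, Hmgcs1 by 1.60, Sqle by 1.12, Srebf1 by 0.49 and Srebf2 by 1.58. Against 100, leaving out 1 array gave -0.053 to 1.14 for Gpihbp1, turning sign without replicate 5, and -0.020 to 0.048 for Acadl, turning sign without replicate 1 or 5. It gave -0.22 to 0.039 for Scarb1 and -1.87 to 0.20 for Msr1, both turning sign without replicate 3.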

Other observations

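Of the 16 other cholesterol synthesis genes, 3 differed by over 2-fold between arrays (18.8%, beside 5.07% of all genes), and 6 were identical on all arrays. The 3 were picked for mention after their values were seen. Fdft1, squalene synthase, had 7.61, 8.85 and 5.42 on replicates 1, 3 and 5, with replicate 5 lowest. Nsdhl, a later enzyme of the same pathway, had 6.96, 4.05 and 6.47, with replicate 3 lowest. Idi1, which isomerises isopentenyl diphosphate, had 6.23, 7.99 and 6.93, with replicate 3 highest. None of the 3 was called, and Insig1 and Srebf2 had the same value on every array.

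Values that were identical on all arrays were often shared between probe sets of different genes. Of all probe sets, 15550 were identical on all arrays, on 2721 different values, and 13889 of them (89.3%) shared theirs with another, up to 258 on 1 value. Of the 18 lipid genes with identical values, 13 shared theirs. The value of Fabp7 stood on 220 probe sets and that of Fabp1 on 134. Fasn and Stab2 had the same value, found on 116 probe sets. The values of Hadha, Hadhb, Cpt1a, Lipe and Slc27a3 stood on 1 probe set each. The cause was not tested, and such a value gives no measure of the spread between kidneys.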
